A study of Mus musculus with 19 samples.

Results

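The type I interferon response genes described here are 39 genes chosen by symbol, and all 39 were found among the 22878 symbols of the RNA tables. Each symbol stood for 1 transcript, the one read most often when the RNA libraries were summed. The study cultured mouse CD4 T cells under Th2 conditions, which favour the helper T cell type that makes IL-4, IL-5 and IL-13, and set cells lacking Bcl11b or Gata3, a pair of transcription factors of T cells, against WT cells. RNA was measured in 16 libraries, 2 for each of 8 groups, and chromatin bound by Bcl11b or GATA3 in 1 library for each antibody, beside 1 input library, all from late WT Th2 cells. The groups were late Bcl11b KO, late Bcl11b WT, early Bcl11b KO, early Bcl11b WT, late Gata3 KO, late Gata3 WT, early Gata3 KO and early Gata3 WT cells. In the Bcl11b experiment all cells came from Bcl11bfl/fl-CreERT2 mice, in which 4-OHT switches on the Cre recombinase that cuts out the floxed part of the gene. Early cells had 4 days of Th2 culture with or without 4-OHT, and late cells had 4 days of priming, 1 day resting with IL-2, and then a second Th2 culture of 4 days with or without 4-OHT. If the KO arm is the one given 4-OHT, exposure to 4-OHT and loss of Bcl11b cannot be told apart. The sources used here do not give the alleles, the deletion method or the days of culture of the Gata3 experiment. Nor do they say whether the 2 libraries of a group came from separate mice or cultures, so p-values measure only the spread between these libraries.

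Type I interferons signal through the receptor chains IFNAR1 and IFNAR2 and the kinases JAK1 and TYK2, which activate STAT proteins. Of these STAT2 takes part with IRF9 in a complex that binds the interferon-stimulated response element (ISRE) near the start of its target genes, among them sensors of foreign nucleic acid, enzymes that cut or modify RNA, and proteins that stop viral replication. Type II interferon, the product of Ifng, acts mainly through another site, the gamma-activated site, and raises many of the same genes. T cells both make and respond to interferons, and IFN-gamma is the hallmark cytokine of Th1 cells, whose programme GATA3 restrains in Th2 cells.

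The 6 promoters below are shown because each holds more than 1 ISRE core, and they are credited to RefSeq, build GRCm38.p6, which is mm10, the build of the peak files. Each runs 5′ to 3′ along its gene and ends at the base before the transcription start, and capitals mark the ISRE core, GAAA, any 2 bases, GAAA, on either strand, so that the other strand reads as TTTC, any 2 bases, TTTC. The windows are chr4:156200819-156200968 on the minus strand for Isg15, which encodes a ubiquitin-like antiviral protein, and chr8:71537473-71537622 on the minus strand for Bst2, which encodes tetherin, a protein that holds budding viruses at the cell surface. They are chr19:34640739-34640888 on the plus strand for Ifit1, chr19:34583279-34583528 on the plus strand for Ifit3, chr5:120907526-120907675 on the minus strand for Oas1a and chr5:120887614-120887763 on the minus strand for Oas1g.
Isg15: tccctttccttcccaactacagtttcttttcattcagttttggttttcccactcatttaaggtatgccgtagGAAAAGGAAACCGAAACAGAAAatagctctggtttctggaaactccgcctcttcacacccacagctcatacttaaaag
Bst2: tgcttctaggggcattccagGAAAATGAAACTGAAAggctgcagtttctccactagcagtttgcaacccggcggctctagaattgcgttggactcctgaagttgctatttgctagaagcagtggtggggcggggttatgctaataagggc
Ifit1: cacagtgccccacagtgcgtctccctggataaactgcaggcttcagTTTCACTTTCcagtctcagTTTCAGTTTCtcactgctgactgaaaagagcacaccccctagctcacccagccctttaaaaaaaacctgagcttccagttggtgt
Ifit3: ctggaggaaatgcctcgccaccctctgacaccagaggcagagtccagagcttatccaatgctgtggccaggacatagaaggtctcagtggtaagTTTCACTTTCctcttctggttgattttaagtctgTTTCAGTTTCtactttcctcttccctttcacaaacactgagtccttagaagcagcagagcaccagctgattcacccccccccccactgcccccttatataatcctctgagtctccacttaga
Oas1a: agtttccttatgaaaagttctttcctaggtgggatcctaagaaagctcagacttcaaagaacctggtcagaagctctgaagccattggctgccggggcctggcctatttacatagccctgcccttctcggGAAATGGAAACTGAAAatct
Oas1g: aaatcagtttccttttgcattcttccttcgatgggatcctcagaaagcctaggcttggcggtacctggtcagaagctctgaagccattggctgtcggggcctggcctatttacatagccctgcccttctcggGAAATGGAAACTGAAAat
In Isg15 3 overlapping cores formed 1 run from position -78 to position -57 relative to the start. Bst2, Oas1a and Oas1g each had 2 overlapping cores on the gene strand, and Ifit1 and Ifit3 each had 2 separate cores on the other strand. Irf7 and Irf9 both had a window, and neither held the core. Promoter windows, from 250 bases before to 50 after a start, were found for 29 of the 39 genes, 37 windows in all. The ISRE core was in 16 of these 37 windows (43.2%), which belonged to 14 of the 29 genes, and in 1131 of all 32851 windows (3.44%). With a C required after it, the core was in 32.4% of the windows of these genes and in 0.819% of all windows. The GATA core, AGATAA on either strand, was in 13.5% of the windows of these genes and in 11.2% of all windows. The gamma-activated site (TTC, any 3 bases, GAA) was in 21.6% of the windows of these genes and in 8.30% of all windows. A match describes letters in a window and is not evidence of binding.

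**Figure D1:**
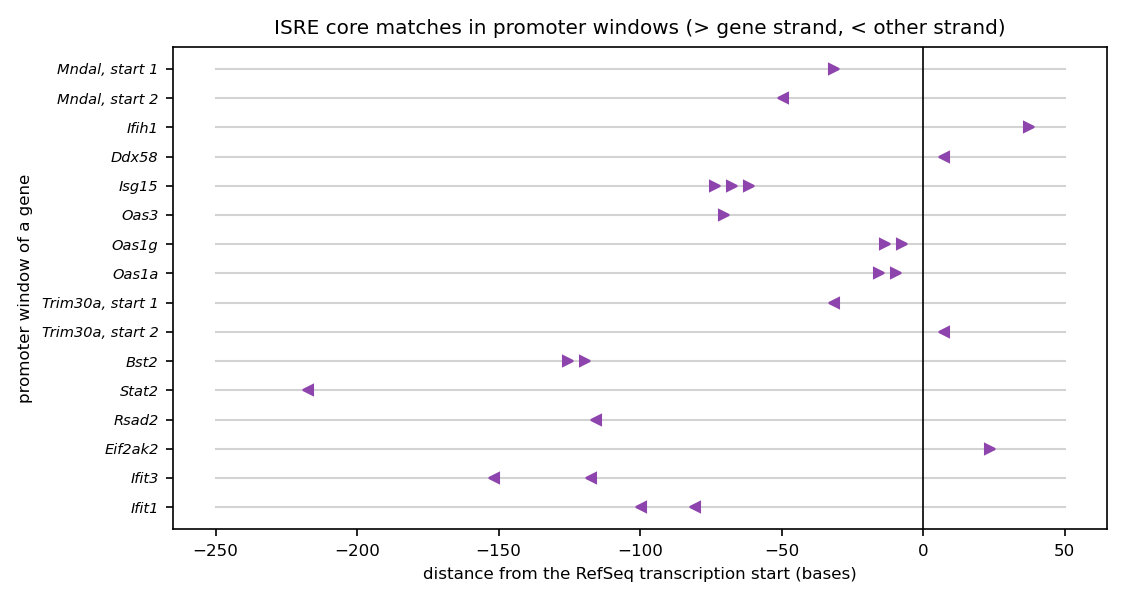
ISRE core matches in the promoter windows of the interferon response genes that hold one. Each line is a window, the horizontal axis is the distance in bases from the RefSeq transcription start, and the arrowheads give the strand of the match, with 16 windows of 14 genes holding at least 1 match and most matches lying before the start.

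Each RNA table held whole-number reads for 29257 transcripts, with 4687552 to 14577958 gene reads in a library of the Bcl11b experiment, and 5117526 to 9892746 in one of the Gata3 experiment. The 2 early Bcl11b WT libraries stood apart. Their gene reads were 20.7% and 16.9% of the library total that the RPKM values imply, against 40.7% to 60.3% elsewhere, and transcripts of sensory receptors, which T cells hardly use, had 3.74 and 4.84 reads per kb, against at most 0.505 elsewhere. Levels are given as CPM, that is reads scaled to library size after TMM normalization, and a pair of values is always the 2 libraries of a group. A gene's count also takes in reads outside the deleted part, so the targeted genes give only a partial check of the labels. Bcl11b had 66.5 and 54.2 CPM in early Bcl11b KO and 126 and 128 CPM in early WT libraries, and 75.6 and 137 CPM in late KO and 140 and 181 CPM in late WT libraries. Gata3 had 425 and 419 CPM in early Gata3 KO and 1178 and 1280 CPM in early WT libraries, and 1090 and 954 CPM in late KO and 1382 and 1327 CPM in late WT libraries. In CPM both targets were below WT in every library, and the late differences were the smaller ones, with a log2 fold change of -0.59 for Bcl11b (adjusted p = 0.421, not called) and -0.41 for Gata3 (adjusted p = 0.0361). In deposited RPKM Bcl11b had 3.32 and 2.89 in early KO and 3.17 and 2.78 in early WT libraries of the Bcl11b experiment. On that scale it was not lower in early KO libraries, so this check depends on the scaling. The T cell markers Cd3e and Cd4 were read in every library.

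As a group, the 39 genes were highest in the early KO cells of both experiments, as the plot of summed levels shows. In the Bcl11b experiment their summed level was 4192 and 3472 CPM in early KO libraries, against 1906 and 1707 CPM in early WT libraries, and 1725 and 1728 CPM in late KO libraries, against 1680 and 1585 CPM in late WT libraries. In the Gata3 experiment it was 3733 and 4005 CPM in early KO libraries, against 1035 and 969 CPM in early WT libraries, and 1880 and 1904 CPM in late KO libraries, against 1171 and 1128 CPM in late WT libraries. KO and WT libraries did not overlap in any of these 4 comparisons, and the late Bcl11b groups lay closest to each other. Of the 39 genes, 32 had their highest group mean of the Bcl11b experiment in early KO cells, and all 39 had that of the Gata3 experiment there. The exceptions in the Bcl11b experiment were Dhx58, Ifit2, Oasl2 and Samhd1, highest in early WT cells, Mx1 and Parp9, highest in late KO cells, and Ube2l6, highest in late WT cells. The counts of 32 and 39 were not set beside the share over all genes. They include members, 13 in the Bcl11b and 9 in the Gata3 experiment, that reached 1 RPKM in 2 libraries only through early KO libraries. Per transcript length the most abundant member in early Gata3 KO cells was Bst2, with 125 and 134 RPKM, followed by Zbp1, which encodes a sensor of Z-form nucleic acid, with 87.3 and 95.1 RPKM. In early Bcl11b KO cells Isg20, which encodes an RNA exonuclease, led with 56.1 and 59.6 RPKM. These RPKM values divide by totals that include reads outside genes. In bulk RNA, fewer cells of a type and less RNA per cell cannot be told apart.

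**Figure D2:**
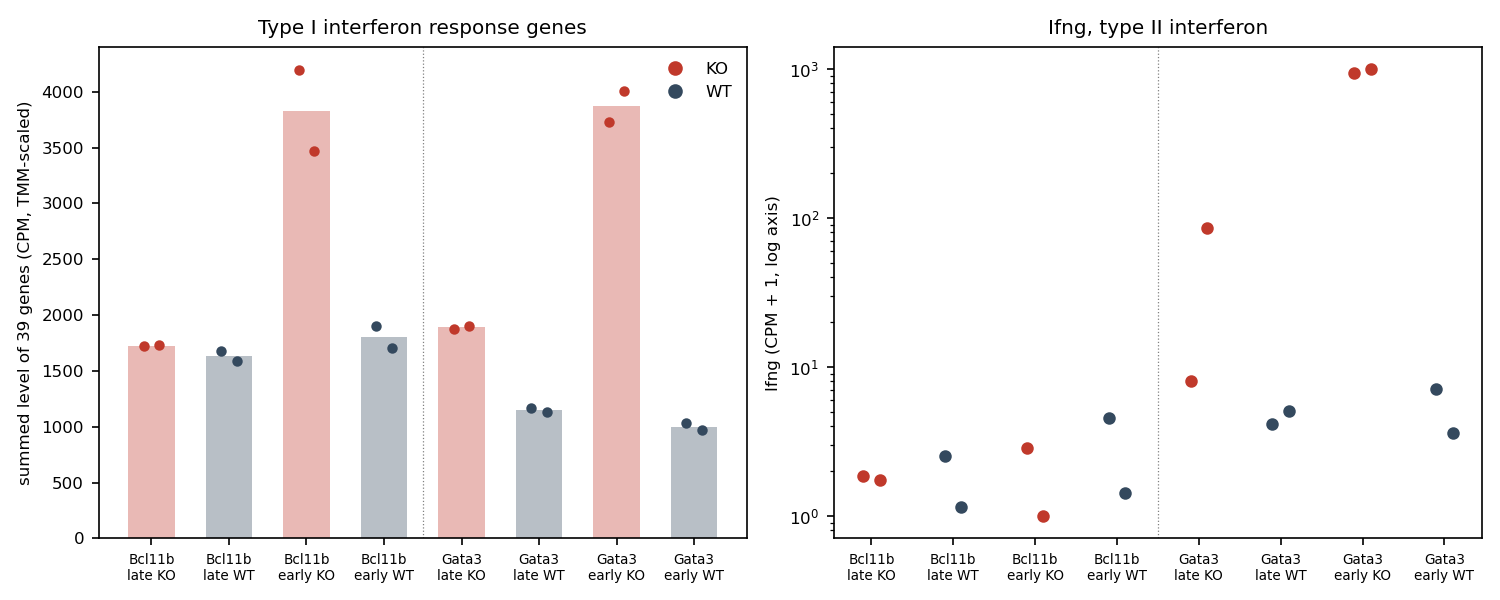
Left, summed level of the 39 interferon response genes in CPM, with bars at the group mean of 2 libraries and points for the libraries. Right, Ifng in the same libraries as CPM + 1 on a log axis. The summed level is highest in early KO libraries of both experiments, between 3472 and 4192 CPM, while Ifng is highest in early Gata3 KO libraries and at most 3.56 CPM in the Bcl11b experiment.

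Loss of Gata3 in early cells went with higher levels of every one of the 39 genes. Tested with edgeR's quasi-likelihood test on the counts and with Benjamini-Hochberg adjustment across every gene in the fit, 39 of 39 were called higher, against a background of 14.0% of the 10601 genes tested called higher and 16.8% called lower. A total of 9 members, Ifit3, Oas1a, Oas1g, Oas2, Oasl1, Oasl2, Mx2, Rsad2 and Ifi44, passed the filter on low values only through the early KO libraries, and had to differ for that reason. The other 30 were called higher as well, with a median log2 fold change of 2.32, against 0.00 over all genes tested. Genes with few or no WT reads have folds that depend on the fit, so for them the reads are given.

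Among the factors that carry the response, Irf7, which encodes the factor that amplifies interferon production, had 177 and 151 CPM in early Gata3 KO libraries and 13.7 and 11.0 CPM in early WT libraries, a log2 fold change of 3.73 ± 0.22 (SE; adjusted p = 1.57e-06). Stat2 had 138 and 140 CPM in KO and 49.1 and 43.7 CPM in WT libraries (1.59 ± 0.13, adjusted p = 1.51e-05). Irf9 had 114 and 113 CPM in KO and 47.6 and 51.0 CPM in WT libraries (1.20 ± 0.12, adjusted p = 3.93e-05). In all 3 the KO libraries lay far above both WT libraries.

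The sensors also rose. Ddx58, which encodes the RNA sensor RIG-I, had 148 and 151 CPM in early Gata3 KO and 54.9 and 52.1 CPM in WT libraries (1.48 ± 0.14, adjusted p = 2.51e-05). Zbp1 had 287 and 307 CPM in KO and 54.2 and 54.2 CPM in WT libraries (2.45 ± 0.14, adjusted p = 1.09e-06). The DNA sensor genes of the HIN-200 family differed most: Mndal had 103 and 118 CPM in KO and 2.30 and 0.877 CPM in WT libraries (6.13 ± 0.30, adjusted p = 6.35e-07). Ifi204 had 847 reads over both KO libraries and 2 over both WT libraries, a ratio of 362 with a 95% counting interval of 99.9 to 2993. Ifi204 and Mndal are close relatives, so reads may be split between them and other genes of the family.

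The oligoadenylate synthetases make the messenger that activates RNase L, and all 6 rose in early Gata3 KO cells. All but Oas3 had passed the filter only through the early KO libraries. Oas3 had 166 and 174 CPM in KO and 9.62 and 13 CPM in WT libraries (3.90 ± 0.16, adjusted p = 2.90e-07). Oas2 had 28.7 and 37.0 CPM in KO and 0.949 and 0.501 CPM in WT libraries (5.49 ± 0.33, adjusted p = 1.58e-06). Oas1a had 105 and 114 CPM in KO and 1.22 and 0.626 CPM in WT libraries (6.89 ± 0.32, adjusted p = 5.11e-07). Oas1a and Oas1g, whose promoters above are much alike, are near copies and may share reads. Of the IFIT genes, whose proteins bind foreign RNA, Ifit1 had 28.8 and 31.0 CPM in KO and 3.12 and 0.626 CPM in WT libraries (4.01 ± 0.46, adjusted p = 0.000106). Ifit3 had 140 reads over both KO libraries and 1 over both WT libraries.

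The other antiviral effectors ranged widely. Rtp4 had 107 and 111 CPM in early Gata3 KO and 2.03 and 1.88 CPM in WT libraries (5.79 ± 0.24, adjusted p = 2.99e-07), and Xaf1, which encodes a partner of the apoptosis inhibitor XIAP, 87.4 and 93.6 CPM in KO and 13.4 and 15 CPM in WT libraries (2.67 ± 0.16, adjusted p = 1.47e-06). Mx1, which encodes a GTPase that blocks viruses, had 54.1 and 58.8 CPM in KO and 12.6 and 12 CPM in WT libraries (2.20 ± 0.16, adjusted p = 6.08e-06). Ifi44 had 237 reads over both KO libraries and none in WT libraries, at least 67.5-fold higher against a floor of 3 reads over the group. At the low end Samhd1, which encodes a nucleotide hydrolase, had 206 and 191 CPM in KO and 133 and 132 CPM in WT libraries (0.58 ± 0.11, adjusted p = 0.00260). In the ISG15 pathway Isg15 had 47.3 and 45.2 CPM in KO and 6.91 and 3.51 CPM in WT libraries (3.16 ± 0.28, adjusted p = 2.10e-05). Trim30a, a TRIM family gene, had 198 and 232 CPM in KO and 30.9 and 28.8 CPM in WT libraries (2.85 ± 0.14, adjusted p = 5.77e-07). The 8 genes of this pathway and its ubiquitin ligases were all called higher.

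**Figure D3:**
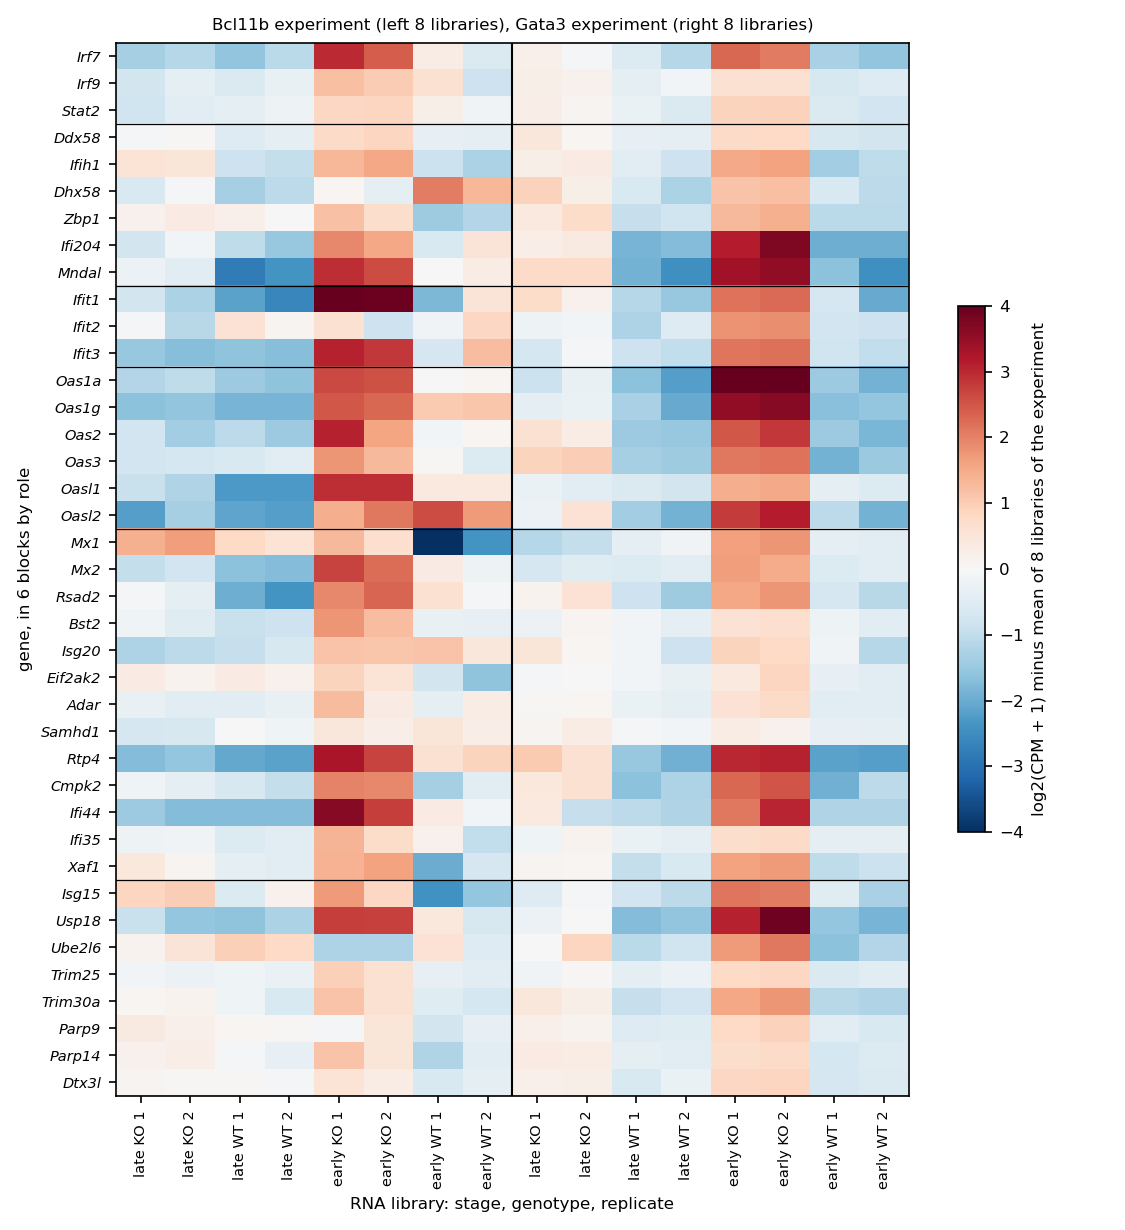
Levels of the 39 interferon response genes in 16 RNA libraries, as log2(CPM + 1) minus the gene's mean over the 8 libraries of its experiment, in 6 blocks by role. The early KO columns are the darkest red in both experiments, and in the Bcl11b experiment Dhx58, Ifit2, Oasl2, Samhd1, Mx1, Ube2l6 and Parp9 have their highest mean in another group.

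In late cells the loss of Gata3 went with a smaller rise of fewer genes. Of the 39 genes, 25 were called higher (8.44% of all genes tested) and 1 lower (5.59% of all). All 25 had also been called higher in early cells. Among the 30 that passed the filter without the early KO libraries 20 were called higher and 1 lower, with a median log2 fold change of 0.75. All 3 transcription factors, all 6 sensors, 5 of 6 oligoadenylate synthetases and 6 of 8 genes of the ISG15 pathway were called higher, but only 4 of the 13 other effectors. Of the oligoadenylate synthetases only Oas3 passed the filter without the early KO libraries. Markers of other cells differed in the same comparison. The 4 NK cell markers summed to 5.87 and 9.53 CPM in late Gata3 KO and 0.837 and 0.536 CPM in late WT libraries, with Eomes called higher and Ncr1 and Klra8 without a read in both groups. The 2 CD8 T cell markers summed to 24.7 and 19.9 CPM in KO and 12 and 11.0 CPM in WT libraries, with Cd8a called higher. Macrophage and monocyte markers summed to 16 and 12.1 CPM in KO and 7.85 and 7.29 CPM in WT libraries, with Cd68 called higher and 1 and 2 of 6 genes without a read. Conventional dendritic cell markers summed to 6.65 and 5.78 CPM in KO and 35 and 39.5 CPM in WT libraries, with Xcr1 called lower and 2 of 6 genes without a read in each group. Their part in the result was not tested.

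Oas3 again had the smallest p-value in late Gata3 KO cells, with 71.4 and 75.7 CPM in KO and 14.7 and 13.6 CPM in WT libraries (2.38 ± 0.15, adjusted p = 1.41e-05). Rtp4 had 26.6 and 19.4 CPM in KO and 3.66 and 2.46 CPM in WT libraries (2.88 ± 0.23, adjusted p = 4.70e-05). Zbp1 had 153 and 194 CPM in KO and 59.8 and 65.7 CPM in WT libraries (1.47 ± 0.13, adjusted p = 0.000101). These 3 genes were well apart between the groups. Mndal rose by 3.61 ± 0.33 (adjusted p = 0.000101), Trim30a by 1.20 ± 0.13 (adjusted p = 0.000348), Ifi204 by 4.00 ± 0.47 (adjusted p = 0.000478), Oas2 by 2.75 ± 0.35 (adjusted p = 0.000720) and Cmpk2, which encodes a mitochondrial nucleotide kinase, by 2.35 ± 0.33 (adjusted p = 0.00127). The other 17 genes called higher had log2 fold changes of 0.43 to 3.99. The calls of these 8 held whichever library was left out.

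The late calls of several signal genes in the Gata3 experiment rested on single libraries. Irf7 had 40.7 and 33.2 CPM in late Gata3 KO and 23.8 and 15.4 CPM in WT libraries (0.90 ± 0.21, adjusted p = 0.0191). Stat2 had 90.2 and 81.0 CPM in KO and 61.2 and 49.6 CPM in WT libraries (0.62 ± 0.13, adjusted p = 0.0124). Ifit1 had 9.98 and 6.39 CPM in KO and 1.99 and 1.29 CPM in WT libraries (2.27 ± 0.49, adjusted p = 0.0135). The calls of these 3 were lost without late WT replicate 2 or late KO replicate 1, with adjusted p up to 0.130, 0.104 and 0.0821 over all settings. Irf9 (0.43 ± 0.12, adjusted p = 0.0376) lost its call without any library other than early WT replicate 2, and Ddx58 (0.63 ± 0.13, adjusted p = 0.0120) without either late WT library, with adjusted p up to 0.654 and 0.0817. Without late WT replicate 2, Ifih1 also lost its call, without late WT replicate 1 Dtx3l, without late KO replicate 2 Oas1a and Oas1g, without either late WT replicate 2 or late KO replicate 2 Oasl2 and Rsad2, and without either late WT replicate 1 or late KO replicate 2 Usp18 and Ube2l6, with adjusted p between 0.0615 and 0.120 at most. Isg15 had 6.65 and 9.33 CPM in KO and 5.44 and 4.29 CPM in WT libraries (0.75 ± 0.31, adjusted p = 0.147) and was not called.

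Mx1 went the other way. It had 7.05 and 8.11 CPM in late Gata3 KO libraries, against 12.6 and 14.8 CPM in late WT libraries, and fell by 0.83 on the log2 scale (SE 0.18, adjusted p = 0.0130). The call was lost without late WT replicate 2 or late KO replicate 1, with adjusted p up to 0.279 over all settings. Its early KO libraries stood at 54.1 and 58.8 CPM, so the same gene was called higher in early and lower in late Gata3 KO cells.

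The Gata3 effect lay lower late than early by a test of the difference itself. For 29 of the 39 genes the late effect was called below the early effect (4.47% of all genes tested), and for 0 above it (7.74% of all). Among the 30 genes that passed the filter without the early KO libraries these were 25. The largest difference relative to its error was that of Mx1, with an effect of -0.83 late and 2.20 early (difference -3.03 ± 0.24, adjusted p = 9.08e-05). Irf7 followed, with an effect of 0.90 late and 3.73 early (-2.83 ± 0.30, adjusted p = 0.000365), and then Trim30a, with 1.20 late and 2.85 early (-1.65 ± 0.19, adjusted p = 0.000516). Xaf1 (-1.76 ± 0.22), Rtp4 (-2.91 ± 0.37), Ifih1 (-1.94 ± 0.27), Oas3 (-1.52 ± 0.21) and Usp18 (-3.93 ± 0.61) had adjusted p between 0.000884 and 0.00283. Of the 29 calls 13 held whichever library was left out, and the count was 17 without early KO replicate 2. Gata3 itself stood at 425 and 419 CPM in early KO and 1178 and 1280 CPM in early WT libraries. Late, it stood at 1090 and 954 CPM in KO and 1382 and 1327 CPM in WT libraries. The part of this smaller late difference in the result was not tested.

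Loss of Bcl11b in early cells also went with higher levels of most of these genes, with exceptions. Of the 39 genes 38 passed the filter, all but Oas2, and 26 were called higher (11.0% of all genes tested) and 2 lower (10.1% of all). A total of 13 members passed only through the early KO libraries: Ifi204, Ifit1, Ifit3, Oas1a, Oas1g, Oasl1, Oasl2, Mx2, Rsad2, Rtp4, Cmpk2, Ifi44 and Usp18. Among the other 25, 17 were called higher and 2 lower, with a median log2 fold change of 1.41, against 0.03 over all genes tested. This comparison uses the early WT libraries that stood apart. On log2(RPKM + 1) with limma the median of all genes moved to 0.86 and the split of members became 34 higher and 0 lower, while the calls over all genes became 6889, against 2291 before, so changes are relative to the scaling used. Markers of other cells moved in the same comparison: Csf1r, of macrophages, had no read in early Bcl11b KO libraries and 9.42 and 40.7 CPM in early WT libraries, and Mpo, of neutrophils, 0.417 and 0 CPM in KO and 18.4 and 23.3 CPM in WT libraries, which was the whole sum of the 4 neutrophil markers, since S100a8, S100a9 and Elane had no read in either group. Over the lists, macrophage and monocyte markers summed to 22.4 and 6.51 CPM in KO and 41.7 and 46.3 CPM in WT libraries, with 2 and 0 of 6 genes without a read in the group, and plasmacytoid dendritic cell markers to 5.94 and 9.04 CPM in KO and 27.4 and 18.2 CPM in WT libraries, with 2 and 1 of 6 genes without a read. Mast cell and basophil markers summed to 45.3 and 42.9 CPM in KO and 3.35 and 11.9 CPM in WT libraries, with 2 and 1 of 4 genes without a read, and most of it was Cpa3. The 2 CD8 T cell markers summed to 99.3 and 83.2 CPM in KO and 42.9 and 42.3 CPM in WT libraries, with Cd8b1 called higher and none without a read. Their part in the result was not tested.

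Sensors were among the genes that rose in early Bcl11b KO cells. Ifih1, which encodes the long-RNA sensor MDA5, had 124 and 144 CPM in early Bcl11b KO and 26.0 and 19.5 CPM in early WT libraries (2.56 ± 0.25, adjusted p = 0.000224). Mndal had 149 and 118 CPM in KO and 18.8 and 22.8 CPM in WT libraries (2.68 ± 0.31, adjusted p = 0.000433). Zbp1 had 75.6 and 53.5 CPM in KO and 11.5 and 13.8 CPM in WT libraries (2.35 ± 0.31, adjusted p = 0.000885). In each of these both KO libraries lay far above both WT libraries. Ddx58 had 204 and 221 CPM in KO and 96.1 and 91.4 CPM in WT libraries (1.18 ± 0.18, adjusted p = 0.00184).

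Dhx58, which encodes LGP2, the third RNA sensor of this family, went against them. It had 15 and 10.5 CPM in early Bcl11b KO libraries, against 61.4 and 36.9 CPM in early WT libraries, and fell by 1.94 on the log2 scale (SE 0.43, adjusted p = 0.0105). The call held whichever library was left out and with the receptor read rate subtracted, and was lost on RPKM, where its adjusted p was 0.0988. Dhx58 stood at 8.86 and 13.2 CPM in late KO and 4.97 and 6.35 CPM in late WT libraries, so its early WT libraries were the highest of the Bcl11b experiment. Ube2l6, which encodes the conjugating enzyme of the ISG15 pathway, had 0 reads in early Bcl11b KO libraries and 15 over both early WT libraries, at least 9.77-fold lower, and its call was lost without early WT replicate 1 and after subtraction of the receptor read rate, with adjusted p up to 0.262 over all settings.

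Of the effectors, Mx1 had 54.1 and 35.2 CPM in early Bcl11b KO and 0.419 and 3.35 CPM in early WT libraries (4.56 ± 0.59, adjusted p = 0.000790). Ifit1 had 132 and 118 CPM in KO and 1.26 and 10.3 CPM in WT libraries (4.44 ± 0.70, adjusted p = 0.00207). Xaf1 had 74.3 and 86.2 CPM in KO and 6.28 and 17.0 CPM in WT libraries (2.79 ± 0.42, adjusted p = 0.00178). The WT libraries of these 3 genes differed several-fold from each other, but neither reached a KO library. Trim25, whose product activates RIG-I, had 454 and 356 CPM in KO and 187 and 171 CPM in WT libraries (1.18 ± 0.18, adjusted p = 0.00173). Isg15 had 16.4 and 8.60 CPM in KO and 0 and 0.838 CPM in WT libraries (4.86 ± 0.99, adjusted p = 0.00723). Oas2, which was not tested because it stayed under the filter, had 23.4 and 7.72 CPM in KO and 1.68 and 2.10 CPM in WT libraries. The other 18 genes called higher beyond the 8 with the smallest p-values had log2 fold changes of 0.79 to 4.86.

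Of the members not called, Ifit2 had 22.5 and 7.61 CPM in early Bcl11b KO and 13 and 26.2 CPM in WT libraries, Oasl2 11.7 and 18.7 CPM in KO and 27.0 and 14.0 CPM in WT libraries, and Samhd1 584 and 507 CPM in KO and 587 and 509 CPM in WT libraries, and in each the groups overlapped.

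The transcription factors moved unevenly in early Bcl11b KO cells. Irf7 had 80.4 and 54.0 CPM in KO and 11.7 and 5.87 CPM in WT libraries (2.93 ± 0.46, adjusted p = 0.00216). Stat2 had 143 and 148 CPM in KO and 94.7 and 73.6 CPM in WT libraries (0.79 ± 0.23, adjusted p = 0.0341). Irf9 had 123 and 107 CPM in KO and 81.3 and 29.5 CPM in WT libraries (1.05 ± 0.39, adjusted p = 0.0829) and was not called. The call of Stat2 was lost without any library other than early WT replicate 1, with adjusted p up to 0.123 over all settings. Of the 28 calls, 23 held whichever library was left out. Mx2 lost its call without early WT replicate 2 (adjusted p up to 0.0604), Rsad2 without early WT replicate 2, early KO replicate 2 or either late KO library (up to 0.0800), and Ifi35 without any library other than early WT replicate 1 and early KO replicate 2 (up to 0.137). With no filter on low values, which tests all 39 genes, 29 were called higher and 2 lower. The calls over all genes in that setting were not set beside this count.

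Few of these genes were called in late Bcl11b KO cells. Of 38 tested, 4 were called higher (1.69% of all genes tested) and 0 lower (0.524% of all). An unadjusted p under 0.05 was found for 11 members and for 1410 of all 10873 genes tested. DESeq2 called 5 members higher and 1 lower, and its calls over all genes were not set beside these. Of the 4, Oasl1 and Rsad2 passed the filter only through the early KO libraries. The median log2 fold change of the 25 genes that passed without those libraries was 0.16, against -0.02 over all genes tested, and 2 of the 25 were called. Mndal had 15.5 and 13.2 CPM in late Bcl11b KO and 1.82 and 2.67 CPM in late WT libraries (2.67 ± 0.33, adjusted p = 0.00355). Ifih1 had 70.2 and 68.4 CPM in KO and 26.5 and 24.2 CPM in WT libraries (1.45 ± 0.24, adjusted p = 0.0145). Rsad2, which encodes viperin, an enzyme that makes a chain-terminating nucleotide, had 5.86 and 4.53 CPM in KO and 0.840 and 0.361 CPM in WT libraries (3.09 ± 0.60, adjusted p = 0.0280). Oasl1 had 34 reads over both KO libraries and none in WT libraries, at least 13.6-fold higher (adjusted p = 0.00994). All 4 had also been called higher in early KO cells. Mndal lost its call without late WT replicate 1 (adjusted p = 0.0777), and Ifih1, Rsad2 and Oasl1 lost theirs without any 1 of the 4 late libraries, with adjusted p up to 0.180, 0.277 and 0.418 over all settings. Markers of several other cell types stood higher in the same comparison. B cell markers summed to 20.1 and 31.4 CPM in late Bcl11b KO and 5.18 and 4.40 CPM in late WT libraries, with 2 of 3 tested called higher and 0 of 5 without a read in either group. Conventional dendritic cell markers summed to 99.9 and 84.9 CPM in KO and 42.4 and 39.4 CPM in WT libraries, with 0 and 1 of 6 without a read. Macrophage and monocyte markers summed to 27.4 and 24.7 CPM in KO and 13.8 and 9.96 CPM in WT libraries, with 1 of 6, Fcgr1, without a read in both groups. Plasmacytoid dendritic cell markers summed to 5.65 and 8.33 CPM in KO and 2.52 and 2.67 CPM in WT libraries, with 2 and 1 of 6 without a read. Mast cell and basophil markers summed to 3.64 and 1.90 CPM in KO and 0.490 and 0.144 CPM in WT libraries, with 1 of 4, Ms4a2, without a read in both groups. Neutrophil markers summed to 1.14 and 1.16 CPM in KO and 0.0700 and 0.0722 CPM in WT libraries, with 1 and 2 of 4 without a read. None of the genes tested in the last 5 lists was called, and the part of these cells in the result was not tested.

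The transcription factors and most sensors were not called in late Bcl11b KO cells. Irf7 had 3.14 and 3.69 CPM in late Bcl11b KO and 2.45 and 3.90 CPM in late WT libraries (log2 fold change 0.10, adjusted p = 0.990), and Irf9 31.7 and 39.9 CPM in KO and 35.5 and 42.9 CPM in WT libraries (-0.13, adjusted p = 0.974). Stat2 had 46.4 and 59.6 CPM in KO and 61.6 and 70.6 CPM in WT libraries (-0.32, adjusted p = 0.691). Ddx58 had 114 and 125 CPM in KO and 84.1 and 90.4 CPM in WT libraries (0.45, adjusted p = 0.285), and Zbp1 37.3 and 41.4 CPM in KO and 38.0 and 32.4 CPM in WT libraries (0.16, adjusted p = 0.942). None of these 5 was called. Isg15 (1.24, adjusted p = 0.586), Ifit1 (2.45, adjusted p = 0.179) and Mx1 (0.90, adjusted p = 0.465) were not called either. Oas2 had 0.715 and 0.105 CPM in KO and 0.420 and 0.0722 CPM in WT libraries.

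The late effect of Bcl11b loss was called below the early effect for 6 of 38 genes (1.29% of all genes tested) and above it for 1 (1.95% of all). The 6 were Zbp1, with an effect of 0.16 late and 2.35 early (difference -2.19 ± 0.42, adjusted p = 0.0261), Oas3 (-2.02 ± 0.41), Mx1 (-3.66 ± 0.74), Eif2ak2, which encodes the kinase PKR (-1.88 ± 0.40), Trim25 (-1.14 ± 0.25) and Irf7 (-2.83 ± 0.65), with adjusted p between 0.0309 and 0.0445 for the last 5. The 1 above was Dhx58, with an effect of 0.96 late and -1.94 early (2.90 ± 0.60, adjusted p = 0.0332). No member was called without late WT replicate 1, late WT replicate 2, late KO replicate 1 or late KO replicate 2, and 2 were called without early KO replicate 1 and 11 without early WT replicate 2. On RPKM, which shifts all genes by -1.04 here, 1 was called above and 34 below, and the fit of all 16 libraries called 3 above and 15 below. The calls over all genes rose as well, to 6054 on RPKM and 1280 in the fit of all 16 libraries, against 352 before.

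**Figure D4:**
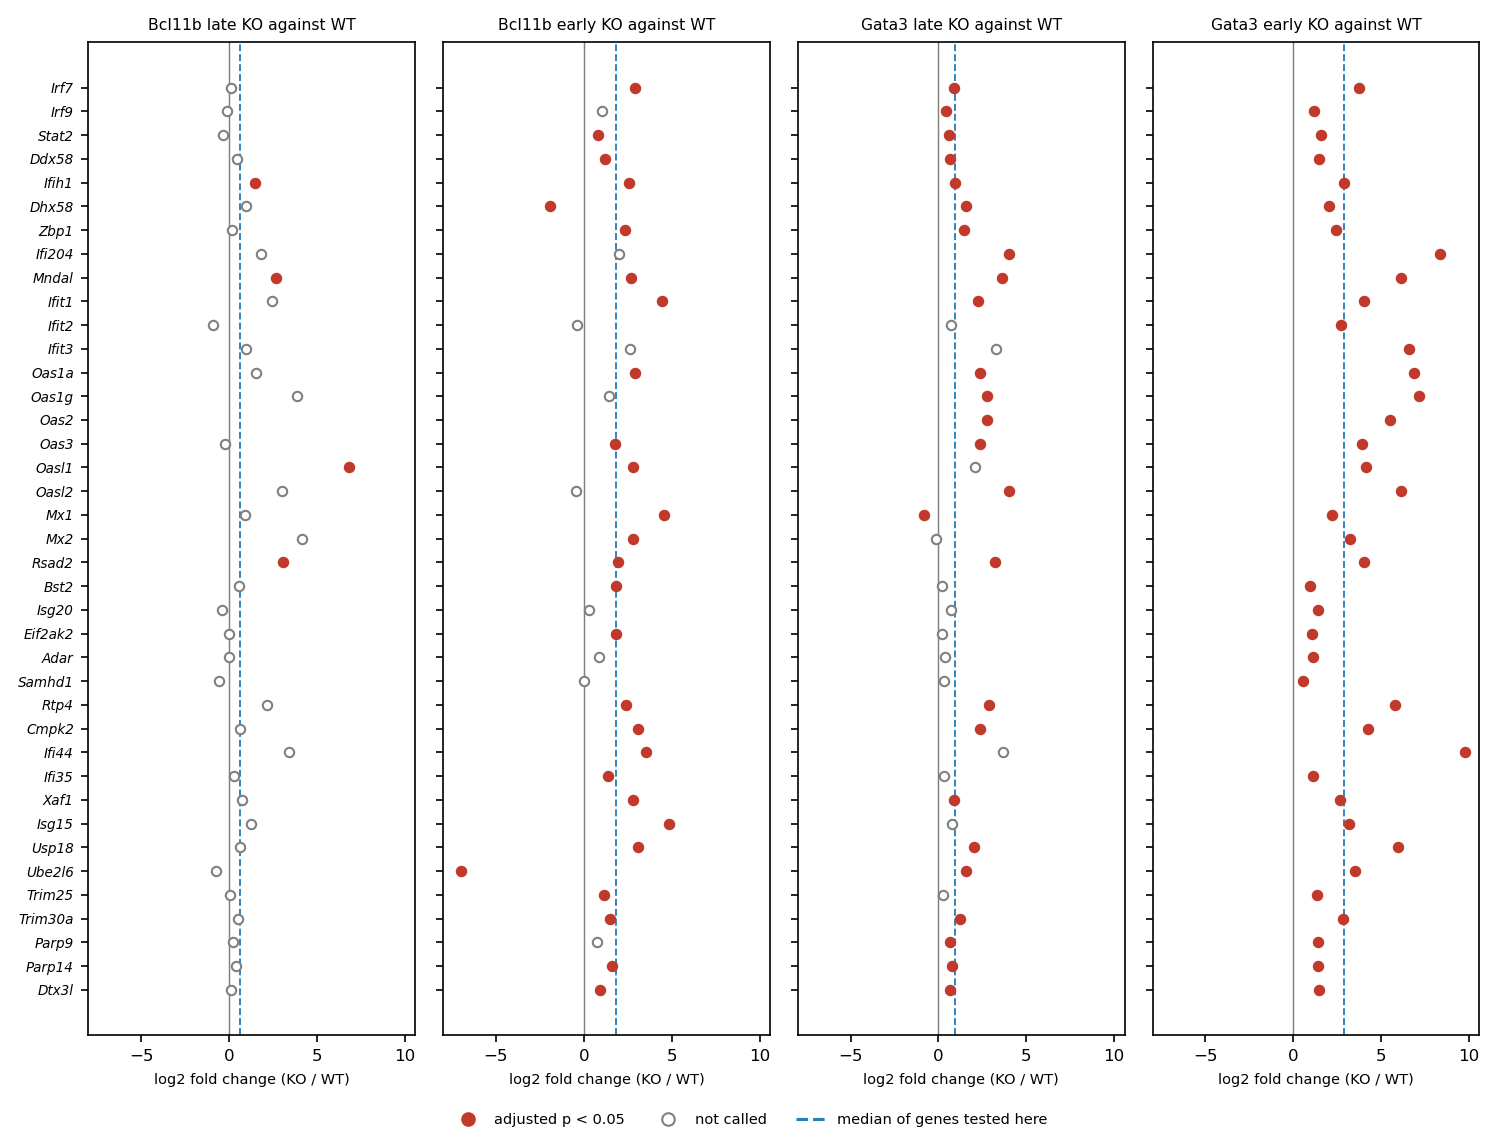
Log2 fold change of KO over WT for each interferon response gene in the 4 KO comparisons, filled where the adjusted p was under 0.05 in edgeR's quasi-likelihood test, with the median of the members tested, including those that passed the filter only through early KO libraries, as a dashed line. Early KO cells have 26 genes called higher in the Bcl11b and 39 in the Gata3 experiment, and points against groups with few or no reads depend on the fit.

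Between the stages of the Gata3 experiment the calls were in KO cells. In late against early Gata3 KO cells 36 of 39 genes were called lower (10.3% of all genes tested) and 0 higher (14.3% of all). Among the 30 genes that passed the filter without the early KO libraries 27 were called lower, with a median log2 fold change of -1.04. The NK cell markers summed to 5.87 and 9.53 CPM in late KO and 245 and 253 CPM in early KO libraries; their part in the result was not tested. Oas1a, for example, had 2.35 and 3.95 CPM in late KO and 105 and 114 CPM in early KO libraries (-5.03 ± 0.27, adjusted p = 3.20e-06). Mx1 fell by 2.88 (SE 0.17, adjusted p = 5.27e-06), and Ifi204, Usp18, Rtp4, Oas1g, Mndal and Xaf1 fell by 1.59 to 4.39 with adjusted p of at most 5.40e-05. In late against early Gata3 WT cells 0 were called higher and 0 lower by edgeR (0% of all genes tested in both directions), with 6 members and 128 of all genes at an unadjusted p under 0.05. DESeq2 and limma on RPKM also called 0. The 6 Th2 marker genes summed to 3898 and 3712 CPM in late and 3557 and 3618 CPM in early Gata3 WT libraries. In Bcl11b WT libraries they summed to 4295 and 4932 CPM late and 601 and 639 CPM early. With the days of culture of the Gata3 experiment not given, the stages of the 2 experiments may not match.

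In the Bcl11b experiment both genotypes changed between the stages. In late against early Bcl11b KO cells 28 of 38 genes were called lower (19.6% of all genes tested) and 1 higher (17.0% of all). Among the 25 genes that passed the filter without the early KO libraries 15 were called lower and 1 higher, with a median log2 fold change of -0.95. Mndal had 15.5 and 13.2 CPM in late KO and 149 and 118 CPM in early KO libraries (-3.21 ± 0.31, adjusted p = 3.59e-05), and Irf7 3.14 and 3.69 CPM in late KO and 80.4 and 54.0 CPM in early KO libraries (-4.30 ± 0.49, adjusted p = 0.000116). The 1 called higher was Ube2l6, with 44 reads over both late KO libraries and none in early KO libraries, at least 11.7-fold higher. Late against early WT cells had 17 genes called lower (22.0% of all genes tested) and 4 higher (19.7% of all), and among the same 25 genes 5 lower and 4 higher. B cell markers summed to 20.1 and 31.4 CPM in late KO and 96.1 and 131 CPM in early KO libraries, and 5.18 and 4.40 CPM in late WT and 102 and 86.8 CPM in early WT libraries; their part in these results was not tested. Mndal was lower there too, with 1.82 and 2.67 CPM in late WT and 18.8 and 22.8 CPM in early WT libraries (-3.21 ± 0.33, adjusted p = 5.29e-05). The 4 called higher were Mx1, with 38.2 and 31.8 CPM in late WT and 0.419 and 3.35 CPM in early WT libraries (4.20 ± 0.59, adjusted p = 0.000346), and Zbp1, Eif2ak2 and Isg15. This split depended on scaling: on RPKM, where the median gene stood at 1.04, 21 were called higher and 6 lower, and with no filter 7 higher and 14 lower. The calls over all genes in these settings were not set beside these counts.

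Set side by side by a test of the difference in 1 fit of 16 libraries, the log2 effect of early Bcl11b loss minus that of early Gata3 loss was called negative for 15 of 39 genes (12.2% of all 11544 genes tested) and positive for 2 (14.4% of all). The 2 were Mx1, with an effect of 4.56 in the Bcl11b and 2.20 in the Gata3 experiment (difference 2.37 ± 0.60, adjusted p = 0.00915), and Bst2, with 1.86 in the Bcl11b and 0.96 in the Gata3 experiment (0.91 ± 0.29, adjusted p = 0.0304). Of the 15, Dhx58 fell in the Bcl11b and rose in the Gata3 experiment (-3.99 ± 0.52, adjusted p = 6.61e-05), and so did Ube2l6, which had no read in early Bcl11b KO libraries. Rtp4 (-3.36 ± 0.47), Mndal (-3.43 ± 0.48), Oas3 (-2.08 ± 0.32) and Oas1a (-3.94 ± 0.61) rose in both, less in the Bcl11b experiment, with adjusted p between 0.000107 and 0.000261. Among the 15, Ifi204, Oas1a, Oas1g, Oasl2, Rtp4, Ifi44 and Usp18 passed the filter of the Bcl11b experiment only through early KO libraries. Oas1a, Oas1g, Oasl2 and Ifi44 did so in the Gata3 experiment too. The count of 15 therefore rests partly on members kept for being high in the groups compared. Bst2 lost its call without early Bcl11b KO replicate 1, early Gata3 WT replicate 1, either early Gata3 KO library or late Gata3 WT replicate 1, with adjusted p up to 0.149. On RPKM 10 differences were called positive and 13 negative, with 6388 calls over all genes, against 3078 before. At the late stage the difference was called negative for 3 genes (1.36% of all genes tested) and positive for 0 (2.29% of all). They were Oas3, with -0.22 for Bcl11b and 2.38 for Gata3 (-2.61 ± 0.32, adjusted p = 0.000225), Zbp1 (-1.32 ± 0.27, adjusted p = 0.0118) and Samhd1 (-0.87 ± 0.19, adjusted p = 0.0191). Of the 3, Oas3 kept its call whichever library was left out, whereas Zbp1 lost its call without late Bcl11b WT replicate 1, late Bcl11b KO replicate 1, late Gata3 WT replicate 1 or late Gata3 KO replicate 2 (adjusted p up to 0.105), and Samhd1 without any late library other than Bcl11b WT replicate 2 and Gata3 KO replicate 1 (up to 0.146). DESeq2 called 1 positive and 5 negative at the late stage, and its calls over all genes were not set beside these. Experiment, culture and deletion system cannot be told apart in these differences.

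Other genes of the interferon pathway were taken from lists by function. Of the 15 type I interferon genes in the tables none passed the filter in either experiment, and 4 had no read in any library. Ifnb1 had 15 reads over both early Bcl11b KO libraries and 1 over both early WT libraries, a ratio of 7.67 with a 95% counting interval of 1.18 to 323, and no read in the Gata3 experiment. In early Bcl11b WT replicate 2 the 15 genes summed to 10.7 CPM, the highest of the 16 libraries, against 0.419 CPM in replicate 1. That library also had the most reads on sensory receptor transcripts, 4.84 per kb. Whether its interferon reads exceed such background was not tested. Ifng had 931 and 991 CPM in early Gata3 KO and 6.10 and 2.63 CPM in early WT libraries (7.79 ± 0.92, adjusted p = 0.000130). In late Gata3 KO libraries it had 7.05 and 84.5 CPM, against 3.14 and 4.07 CPM in late WT libraries (3.74 ± 0.87, adjusted p = 0.0191), so the 2 late KO libraries differed greatly in Ifng while their summed levels of the 39 genes were 1880 and 1904 CPM. In the Bcl11b experiment Ifng was at most 3.56 CPM in any library, and was under the filter. The 4 NK cell markers summed to 245 and 253 CPM in early Gata3 KO and 1.36 and 0.376 CPM in early WT libraries, with 2 of 4, Ncr1 and Klra8, without a read in both groups and with Eomes, at 204 and 207 CPM in KO libraries, making up most of the sum. The 2 CD8 T cell markers summed to 39 and 31 CPM in early Gata3 KO and 11.5 and 8.39 CPM in early WT libraries, with none without a read. Conventional dendritic cell markers summed to 4.55 and 1.37 CPM in early Gata3 KO and 31.2 and 36.4 CPM in early WT libraries, with Xcr1 called lower and 2 of 6 genes without a read in each group. Their part in the result was not tested.

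Some receptor and signal genes were called too. The counts of this and the next lists stand beside 14.0% of all genes called higher and 16.8% lower in early Gata3 KO cells, 8.44% and 5.59% in late ones, 11.0% and 10.1% in early Bcl11b KO cells, and 1.69% and 0.524% in late ones. The lists are short, and in those with calls in both directions the counts are not set apart from these shares by any test. Ifnar1 had 89.1 and 96.9 CPM in early Gata3 KO and 72.1 and 66.1 CPM in WT libraries (0.43 ± 0.11, adjusted p = 0.0180). Ifnar2 had 50.2 and 64.7 CPM in early Gata3 KO and 40.9 and 30.9 CPM in WT libraries (0.68 ± 0.18, adjusted p = 0.0169). In early Bcl11b cells neither was called, with Ifnar1 at 117 and 135 CPM in KO and 72.5 and 110 CPM in WT libraries and Ifnar2 at 21.2 and 25.9 CPM in KO and 30.6 and 47.8 CPM in WT libraries. Of 9 receptor and JAK-STAT genes, 6 rose and 1, Jak2 (-1.44 ± 0.16), fell in early Gata3 KO cells. In early Bcl11b KO cells 3 rose and 1, the IFN-gamma receptor gene Ifngr1 (-1.0 ± 0.29), fell.

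Among 6 further interferon regulatory factors, 2 rose in early Gata3 KO cells, Irf8 (1.98 ± 0.15) and Irf1 (1.63 ± 0.15), and Irf4 fell (-2.27 ± 0.25), whereas in early Bcl11b KO cells Irf8 fell (-3.19 ± 0.58) and the other 5 were not called. Late Gata3 KO cells had Irf1 higher (0.82 ± 0.15), and no factor of this list was called in late Bcl11b KO cells. Of 23 other interferon-stimulated genes tested in the Gata3 experiment 17 rose and 3 fell early, and 10 rose and 1 fell late. The 3 that fell early were Ifitm1 (-1.92 ± 0.21), Ifitm2 (-0.59 ± 0.20) and Ifitm3 (-1.33 ± 0.13), which encode proteins that block viral entry. In early Bcl11b KO cells 13 of 25 rose, among them Ifitm3 (1.18 ± 0.19), Lgals3bp (2.52 ± 0.21) and Nmi (1.80 ± 0.28), and 0 fell, and in late ones 2 rose, Ifi205 and Lgals3bp. Of the sensor adaptors and kinases 3 of 7 rose and 2 fell in early Gata3 KO cells, and 2 of 8 rose in early Bcl11b KO cells, Tmem173, which encodes STING (1.73 ± 0.22), and Ikbke (0.96 ± 0.22). Late, 2 rose with Gata3 loss and 0 with Bcl11b loss. Of 8 negative regulators 3 rose and 2 fell in early Gata3 KO cells, with Socs3 at -2.38 ± 0.19, and 3 rose and 1 fell in late ones, and 1 rose in early and 0 in late Bcl11b KO cells.

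The genes outside the list whose group means followed the 39 genes most closely were Samd9l (Pearson's r = 0.99), Trim30d (0.99), Gzmc (0.98), Ccrl2 (0.98) and Pydc4 (0.98), over 8 group means and among 9948 candidate genes; the 8 groups come from 2 experiments and are few. Samd9l had 151 and 125 CPM in early Bcl11b KO and 65.1 and 57.6 CPM in early WT libraries, and 179 and 170 CPM in early Gata3 KO and 62.1 and 37.7 CPM in early WT libraries. Gzmc, which encodes granzyme C of cytotoxic cells, had 77.4 and 87.6 CPM in early Bcl11b KO and 19.7 and 5.45 CPM in early WT libraries, and 161 and 94.7 CPM in early Gata3 KO and 8.27 and 5.51 CPM in early WT libraries. In both genes the early KO libraries lay above all other libraries of their experiment. They were picked for following the 39 genes, which were highest in those groups, so this is not a separate result.

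Peaks of Bcl11b and GATA3 were assigned by the authors' lists to the closest gene. Peaks that overlapped an input peak were left out, 2197 of 17459 (12.6%) for Bcl11b and 1413 of 28612 (4.94%) for GATA3. Of the 39 genes 11 had a Bcl11b peak (28.2%), against 49.9% of the 10601 genes tested in the Gata3 experiment, and 22 a GATA3 peak (56.4%), against 53.2%. Within 1 kb of a start 3 had a Bcl11b peak (7.69%, against 31.0%) and 2 a GATA3 peak (5.13%, against 16.6%). The step that left out input overlaps took 4 Bcl11b and 6 GATA3 peaks of members, beside 16 and 39 kept. Among those taken were peaks within 1 kb of a start, of Bcl11b at Irf9 and Samhd1 and of GATA3 at Irf9, Oasl2 and Zbp1. The counts near a start therefore depend on this step. With 1 library for each antibody there is no test of binding. Peaks of both antibodies were assigned to Adar, Cmpk2, Ifih1, Irf9, Isg20, Mx1, Samhd1, Trim30a and Zbp1, and 8 of the 16 Bcl11b peaks of members overlapped a GATA3 peak. The same shares over all genes and over all 15262 kept Bcl11b peaks were not taken. Whether members differ from other genes in this cannot be told. No kept peak was assigned to 15 genes, among them Irf7, Stat2, Ddx58, Isg15, Oas1a, Oas1g, Rsad2 and Usp18. Of these 15, Usp18 and Oasl2 had a GATA3 peak that was left out because it overlapped an input peak.

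The Bcl11b peaks near a start were those of Cmpk2, with its summit 181 bases after the start and an authors' fold enrichment of 2.64, Dtx3l, with its summit at -902 bases and 3.19, and Isg20, with its summit at -1072 bases, its centre nearer to the start and 2.41; negative positions lie before the start. Fold enrichments are the authors' values for each peak. The GATA3 peaks near a start were those of Ube2l6, 553 bases after its start with an enrichment of 1.56, and Isg20, at -863 bases with 3.11, where it overlapped the Bcl11b peak. The GATA3 peak of a member with the highest fold enrichment had its summit at -28791 bases from the start of Adar, with an enrichment of 17.12, and overlapped a Bcl11b peak of 5.43. By the authors' score that of Samhd1, with its summit at -12638 bases, stood higher, at 3100 against 2305.47, with an enrichment of 14.8. The promoters of Cmpk2 (chr12:26469065-26469214, plus strand) and Dtx3l (chr16:35939028-35939177, minus strand) hold no ISRE core. Cmpk2 and Dtx3l are the members with a kept Bcl11b peak closest to the start. The Cmpk2 peak, at chr12:26469054-26469863, spans the Cmpk2 sequence. The Dtx3l peak, at chr16:35939238-35940368, does not overlap the Dtx3l sequence. Only 14 of the 29 genes with a promoter window held the core, so its absence does not set these promoters apart.
Cmpk2: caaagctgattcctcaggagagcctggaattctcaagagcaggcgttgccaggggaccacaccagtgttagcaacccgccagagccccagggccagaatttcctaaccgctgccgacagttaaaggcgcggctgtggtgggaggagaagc
Dtx3l: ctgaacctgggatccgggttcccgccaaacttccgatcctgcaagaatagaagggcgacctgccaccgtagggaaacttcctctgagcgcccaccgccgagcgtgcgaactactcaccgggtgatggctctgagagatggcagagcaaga
Cmpk2 rose in early KO cells of both experiments, with 27.6 and 26.5 CPM in early Bcl11b KO and 1.88 and 4.40 CPM in early WT libraries (3.10 ± 0.57, adjusted p = 0.00465), and 43.3 and 50.0 CPM in early Gata3 KO and 1.36 and 3.38 CPM in early WT libraries (4.27 ± 0.31, adjusted p = 5.92e-06). Dtx3l, which encodes a ubiquitin ligase, also rose in both (0.91 ± 0.18, adjusted p = 0.00640 with Bcl11b loss, and 1.48 ± 0.13, adjusted p = 1.58e-05 with Gata3 loss), and Isg20 rose with Gata3 loss (1.4 ± 0.31, adjusted p = 0.00709) and was not called with Bcl11b loss (0.30 ± 0.26, adjusted p = 0.442). Genes with and without an assigned peak were among those called in early KO cells.

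**Figure D5:**
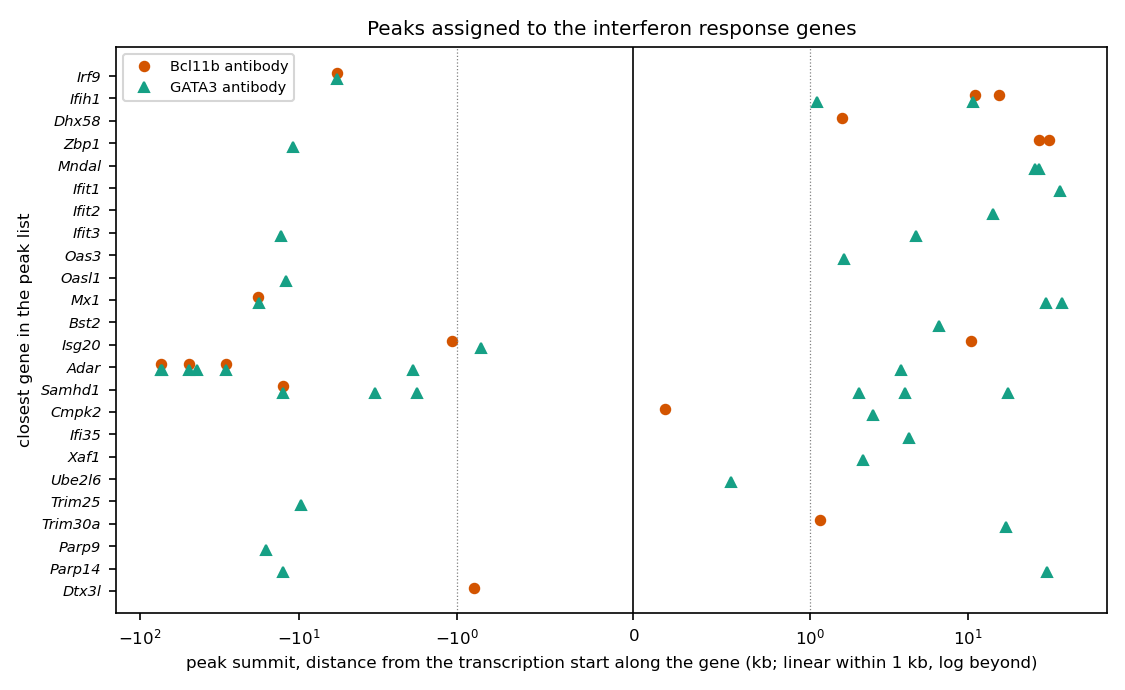
Summits of Bcl11b and GATA3 peaks assigned to the interferon response genes, by distance in kb from the transcription start along the gene, linear within 1 kb and on a log scale beyond. Each row is 1 of the 24 genes with a peak that did not overlap an input peak, and 4 genes have such a summit or peak within 1 kb of a start.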

How the data were processed

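RNA-seq tables for 16 libraries and peak lists for Bcl11b, GATA3 and input were used. RNA was amplified from 10 ng with the Ovation RNA-Seq V2 kit, per the labels' protocols. The submitters' processing notes name the build mm10 and, without roles, MACS 1.4.2, TopHat2 2.0.13, Novoalign, CASAVA 2.18 and Bowtie. The tables hold read counts per transcript and RPKM as deposited by the authors. The sources used here do not give the counting tool or its strand setting, so near copies (Oas1a and Oas1g, Ifi204 and Mndal, Mx1 and Mx2) may share reads. The peak lists hold tag counts, fold enrichment, a score of -10 log10 of the p-value and a false discovery rate in percent, as deposited by the authors. Each symbol was represented by its transcript with the most reads.

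Counts were tested with edgeR 4.0.16 (quasi-likelihood test, TMM scaling, R 4.3.3) in 1 fit of 8 libraries per experiment, and of 16 for differences between experiments, on genes with a deposited RPKM of at least 1 in at least 2 libraries. P-values had Benjamini-Hochberg adjustment across every gene in the fit, and were called below 0.05. Fold changes against groups without reads use a floor of 3 reads over the group, and read ratios have 95% intervals that cover counting error only. Alternatives were DESeq2 1.42.0, limma 3.58.1 on log2(RPKM + 1), no filter, subtraction of the receptor read rate, other sets of libraries, a replicate block and each library left out. The test was checked on simulated counts with known changes. The text names the 8 members with the smallest p-value in a comparison and 9 chosen members (Irf7, Irf9, Stat2, Isg15, Ifit1, Mx1, Oas2, Ddx58 and Zbp1), and gives the rest as counts, except examples named after their values were seen. The members and lists were chosen with earlier results of these data known. Motifs were sought in RefSeq promoter windows on both strands with Python 3.11.15.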

Additional observations from a re-analysis of the deposited data

Results flagged for a closer look

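Effects that differed between stages or between experiments by a test of the difference itself, with edgeR's quasi-likelihood test and an adjusted p under 0.05, are given as differences of log2 fold changes. In the Bcl11b experiment the late minus the early KO effect was called for Irf7 (-2.83), Dhx58 (2.90), Zbp1 (-2.19), Oas3 (-2.02), Mx1 (-3.66), Eif2ak2 (-1.88) and Trim25 (-1.14). Each of these lost its call when at least 1 late library was left out.

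In the Gata3 experiment the late minus the early KO effect was called for 29 genes. Among transcription factors and sensors they were Irf7 (-2.83), Irf9 (-0.77), Stat2 (-0.96), Ddx58 (-0.85), Ifih1 (-1.94), Zbp1 (-0.98), Ifi204 (-4.35) and Mndal (-2.52). Among IFIT genes and oligoadenylate synthetases they were Ifit2 (-2.02), Oas1a (-4.52), Oas1g (-4.36), Oas2 (-2.74) and Oas3 (-1.52), among the other effectors Mx1 (-3.03), Mx2 (-3.38), Bst2 (-0.78), Adar (-0.74), Rtp4 (-2.91), Cmpk2 (-1.93), Ifi35 (-0.82) and Xaf1 (-1.76), and in the ISG15 pathway Isg15 (-2.41), Usp18 (-3.93), Ube2l6 (-1.95), Trim25 (-1.07), Trim30a (-1.65), Parp9 (-0.74), Parp14 (-0.63) and Dtx3l (-0.83). The value of Oas1g rests on 8 reads or fewer in either WT group.

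Early KO effects in the Bcl11b minus the Gata3 experiment were called for Stat2 (-0.78), Dhx58 (-3.99), Ifi204 (-6.34), Mndal (-3.43), Ifit2 (-3.10), Oas1a (-3.94), Oas1g (-5.69), Oas3 (-2.08), Oasl2 (-6.54), Mx1 (2.37), Bst2 (0.91), Samhd1 (-0.57), Rtp4 (-3.36), Ifi44 (-6.35), Usp18 (-2.83), Ube2l6 (-10.34) and Trim30a (-1.32). The values of Ube2l6, Ifi44, Ifi204 and Oasl2 rest on groups with few or no reads and depend on the fit. Late KO effects in the Bcl11b minus the Gata3 experiment were called for Zbp1 (-1.32), Oas3 (-2.61) and Samhd1 (-0.87). Groups of 2 libraries are too small to test for a library far from the others.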

How the results depend on the processing

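In early Gata3 KO cells all 39 calls held under each alternative run: DESeq2, no filter, limma on log2(RPKM + 1), only the 4 libraries compared, all 16 libraries, a replicate block, and each library left out. No member was called between late and early Gata3 WT cells under any of them. The late Bcl11b KO count of 4 became 1 on RPKM and 10 with only the 4 libraries compared (219 and 1582 of all genes, against 241), and ranged from 0 to 6 with a library left out. The late Gata3 KO count of 26 became 16 in the fit of all 16 libraries. The count of 7 for the Bcl11b KO effect between stages became 35 on RPKM (6054 of all genes, against 352), 18 with all 16 libraries (1280 of all genes) and 4 with the replicate block (206 of all genes), and ranged from 0 to 11 with a library left out. The count of 29 for the Gata3 KO effect between stages became 17 with all 16 libraries and ranged from 17 to 27 with a library left out. The count of 3 between the late experiments became 6 with DESeq2 and 8 on RPKM, and ranged from 1 to 7 with a library left out. Counts given here without a number over all genes show only how far the member count moved. With only GATA3 peaks at or above the median enrichment, 14 genes kept a peak instead of 22.

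On RPKM the direction turned for Samhd1 (1.11) in early Bcl11b KO cells, for Oas1g (-1.47), Oasl1 (-2.10), Mx2 (-1.52) and Rsad2 (-1.04) in the Bcl11b KO effect between stages, for Irf9 (0.91), Stat2 (0.94), Ddx58 (1.15), Ifit2 (0.85), Oas3 (0.77), Bst2 (0.79), Adar (0.85), Samhd1 (0.98) and Ifi35 (1.17) between late and early Bcl11b WT cells, and for Stat2 (0.16), Ddx58 (0.62), Oasl1 (1.51), Mx2 (0.63), Samhd1 (0.47), Ifi44 (0.26) and Trim25 (0.91) between the early experiments. RPKM differs by construction in early Bcl11b WT libraries, whose totals hold more reads outside genes. With a library left out, the late minus early Gata3 effect of Oas1g ranged from -5.31 (without late WT replicate 2) to 0.088 (without late WT replicate 1), and the early Bcl11b minus Gata3 effect of Irf9 from -0.68 (without early Bcl11b WT replicate 2) to 0.77 (without early Bcl11b WT replicate 1); the cause was not tested.

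Replicate numbers are shared by the groups, and nothing in the labels ties them to a shared animal or day. Deviations of same-numbered libraries correlated at r = -0.08 to 0.34 in the Bcl11b and 0.17 to 0.60 in the Gata3 experiment. With the replicate block the counts were 28 and 4 for early and late Bcl11b KO cells and 39 and 29 for early and late Gata3 KO cells. Depth limits genes with few reads, such as Oasl1, Ifi44 and Ifit3.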
